A study of Homo sapiens with 8 samples.

Results

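G401 cells that had been induced to express SMARCB1 for 12 h were compared with the same cells given vehicle, using 2 ribosome footprint libraries from each condition (4 of the 8 libraries in the series). Genes were kept for description when both Dox libraries lay above, or both lay below, both DMSO libraries. This held for 3951 of the 11097 genes tested. If library order were random, a share of 0.333 of genes would meet this rule, so meeting it does not by itself mark a gene as changed. G401 is an established kidney rhabdoid tumor line that lacks SMARCB1. The cells carried a doxycycline-switched (Tet-On) SMARCB1 construct and received doxycycline (Dox) at 0.1 µg/ml or equivalent DMSO. The other 4 libraries came from G401 cells in which the same system drives GFP, under the same Dox and DMSO treatments, and they were read only as a check on what Dox does without SMARCB1. Both engineered lines derive from this 1 tumor line, several plates were pooled for each library, and the re-expressed SMARCB1 comes from a transgene instead of its own locus.

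SMARCB1 is a core subunit of the mSWI/SNF chromatin remodelers, which use ATP to move nucleosomes and open promoters and enhancers. Its loss defines rhabdoid tumors, and its return to such cells is known to change enhancer activity and to slow proliferation. The libraries hold short RNA fragments protected by elongating ribosomes, which were captured with RiboLace, a puromycin-analog pulldown. A footprint count on a coding sequence therefore reflects both how much mRNA a cell holds and how heavily ribosomes occupy it. RNA-seq was not analysed here, so those contributions cannot be told apart in any value below, and neither can fewer expressing cells and less signal per cell.

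Between 5924443 and 14000039 footprints per library fell on coding sequences, and levels are given as CPM, counts scaled to a common library size after TMM normalization. Within the SMARCB1 line the deepest and the shallowest library were both DMSO libraries (13700539 and 5924443). Replicates correlated at 0.95 to 0.98 (Pearson's r, log2 CPM, across genes), and the lowest correlation within a line, 0.95, was above the highest between lines, 0.93. The multi-mapped share ran from 25.6% to 39.7% of the unique and multiple alignments tallied by HTSeq in 7 libraries and was 56.4% in GFP Dox replicate 1. Of the defining markers of G401, VIM lay between 2437 and 3384 CPM in the 4 SMARCB1-line libraries and KRT8 between 1227 and 2009 CPM. FN1 held only 8 counts over all 8 libraries, and CD99, a gene present on both sex chromosomes, was at 0. Of 29 markers of blood, endothelium, kidney tubule, epithelium, skeletal muscle and neurons, 4 had enough counts to be tested. One of these, CD74 (21.8 and 31.9 CPM with Dox, 22.7 and 43.7 with DMSO), made up nearly all of the leukocyte sum, while PTPRC and CD3E were at 0 in every library. The summed endothelial markers lay at 1.09 to 2.22 CPM with Dox and 0.834 to 1.25 with DMSO, the kidney tubule markers at 0.159 to 0.167 against 0.334 to 1.40, the epithelial markers at 0.476 to 0.586 against 0.167 to 0.701, the muscle markers at 2.68 to 5.55 against 4.44 to 4.84, and the neuronal markers at 1.76 to 4.60 against 4.003 to 7.95. Erythroid markers were at 0 in the line.

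SMARCB1 itself checked the labels. It received 2553 and 1750 footprints in the Dox libraries of its line, or 214 and 277 CPM, and 0 in both DMSO libraries and in all 4 libraries of the GFP line. Against the 3 counts that a total of 0 in the pooled DMSO libraries still allows, this was at least 1479-fold higher. The bound drops to 471-fold if only the shallower DMSO library is counted. Because Dox and DMSO libraries do not overlap and no other library holds a single SMARCB1 footprint, induction was on in both Dox libraries and not measurable elsewhere.

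Few genes were separated by a wide margin between Dox and DMSO libraries of the SMARCB1 line. Both Dox libraries lay above both DMSO libraries for 1918 genes (17.3% of those tested) and below for 2033 (18.3%). The same rule held for 1459 (13.1%) and 1461 genes (13.2%) after GFP induction. Most of these genes were separated narrowly. The median gap between the nearest Dox and DMSO libraries was 1.12-fold, and 1732 genes (43.8%) had a gap under 1.1-fold. Scaling mattered for this split, since 48.5% of the non-overlapping genes were higher after TMM scaling and 68.2% (2654 against 1237) when libraries were scaled by total counts alone. The median log2 change of all genes was -0.02 under the first and 0.09 under the second.

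The separation leaned upward once a margin was asked for, most among genes of low footprint level. With a gap of at least 1.5-fold, 332 genes (2.99%) lay above and 129 (1.16%) below DMSO after SMARCB1 induction, whereas GFP induction gave 69 (0.622%) and 133 (1.2%). With a gap of at least 2-fold the numbers were 148 (1.33%) and 29 (0.261%), against 22 (0.198%) and 70 (0.631%). With at least 10 counts also required in every library, which removes genes that are near 0 in one condition or in the GFP line, 29 higher and 9 lower genes had a 2-fold gap. Non-overlap combined with a fitted change above 2-fold held for 354 higher (3.19%) and 147 lower genes (1.32%). Tested genes were also divided into quintiles by mean footprint level over the 4 groups. With the 1.5-fold gap, the lowest quintile had 9.46% of genes above and 3.33% below in the SMARCB1 line. The highest quintile had 0.18% above and 0.50% below.

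Genes were called with edgeR and with DESeq2 at an adjusted p under 0.05 and a change above 2-fold. edgeR's quasi-likelihood test, the main test, called 2 genes higher (0.018%), SMARCB1 and ASS1, and none lower (0%), with 552 genes at an unadjusted p under 0.05 (4.97%). DESeq2's Wald test called 26 higher (0.234%) and 8 lower (0.0721%), with 553 genes at an unadjusted p under 0.05 (4.98%). A calibrated test gives an unadjusted p under 0.05 to a share of 0.05 of unchanged genes. All 34 had non-overlapping libraries, and edgeR's set was contained in DESeq2's. edgeR called more than 2 genes when either GFP Dox library was left out, all of them also called by DESeq2. It called no more than 2 when any other single library was left out. Leaving out either GFP Dox library changed both the shared estimate of the spread and the set of genes that passed the filter. An exact permutation test of 2 against 2 libraries cannot go below p = 0.333 for any single gene, so each call rests on spread shared across genes.

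The called genes other than SMARCB1 (33 in all) are described below by what their products do, with Dox libraries given before DMSO libraries and replicate 1 before replicate 2. In the GFP line both tools called no gene higher or lower (0%), with 240 (2.16%, edgeR) and 251 (2.26%, DESeq2) at an unadjusted p under 0.05. The lines' Dox effects were also compared directly. edgeR called no difference in either direction (0%; 443 genes, 3.99%, at an unadjusted p under 0.05) and DESeq2 called SMARCB1 alone (0.00901%; 448 genes, 4.04%, at an unadjusted p under 0.05). For the 25 other genes called higher, the median log2 change after SMARCB1 induction was 2.01, beside 0.02 after GFP induction. For the 8 called lower the medians were -1.37 and 0.03. These genes were selected on the SMARCB1-line change, so the medians describe them and test nothing. None of the 33 passed adjustment for that difference in edgeR (adjusted p 0.977 to 0.981).

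**Figure D1:**
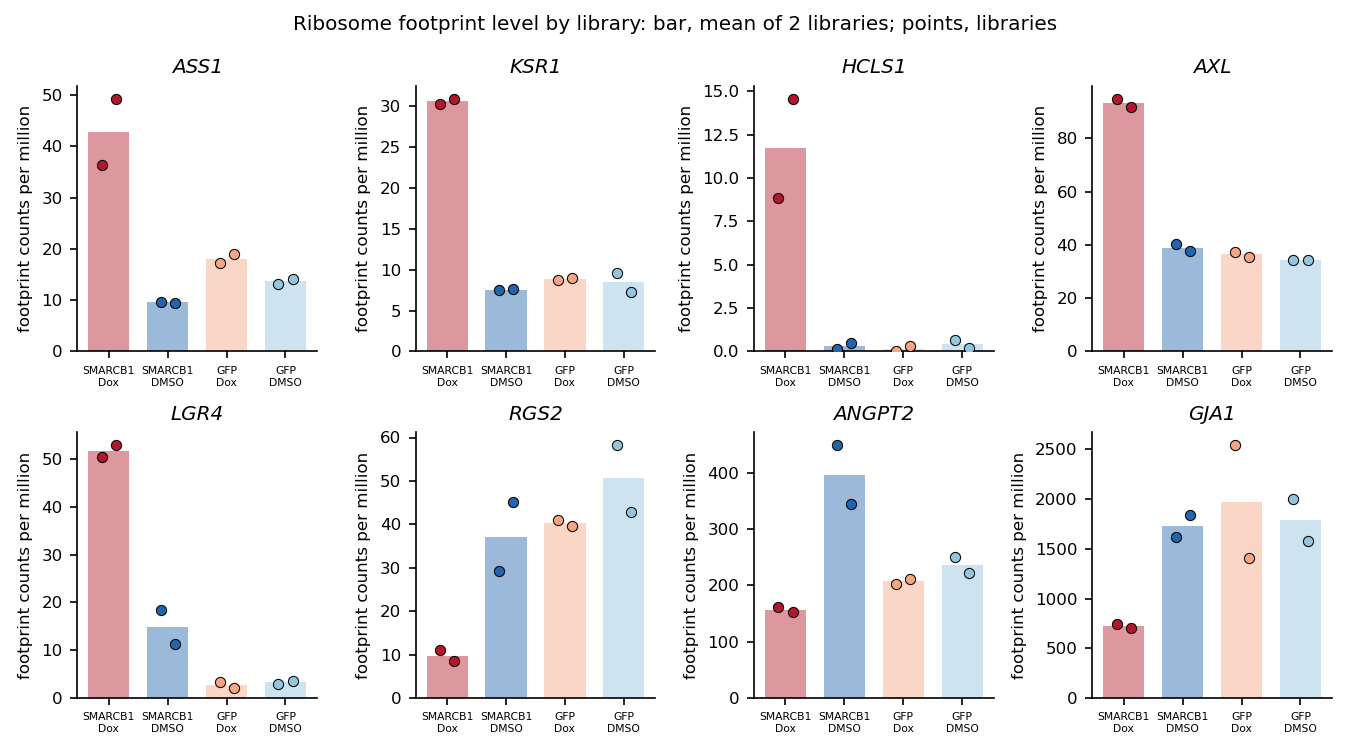
Footprint levels of 8 genes in every library, in CPM on linear axes from 0, with bars at the mean of 2 libraries and points for libraries. ASS1, KSR1, HCLS1, AXL and LGR4 stand above, and RGS2, ANGPT2 and GJA1 below, all other libraries only in SMARCB1 Dox.

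ASS1, argininosuccinate synthase, which makes the precursor of arginine from citrulline and aspartate, led the comparison after SMARCB1. Its level was 36.4 and 49.3 CPM with Dox and 9.67 and 9.43 CPM with DMSO, a mean 4.49-fold difference. The log2 change was 2.16 ± 0.29 (SE), with an adjusted p of 0.0185 in edgeR and 1.24e-07 in DESeq2. The Dox libraries also did not overlap the DMSO libraries in the GFP line, but the distance was smaller (17.2 and 18.9 against 13.2 and 14.1 CPM, log2 change 0.40). ASS1 stayed positive in every alternative run, and edgeR no longer called it when any 1 of the 4 SMARCB1-line libraries was left out (adjusted p 0.06385 to 0.463). The gene lies on the plus strand of hg38 chr9:130444961-130501274, and footprints were counted over its coding exons.

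KSR1, a scaffold that brings RAF, MEK and ERK together, stood at 30.3 and 30.9 CPM with Dox and at 7.51 and 7.64 CPM with DMSO. The change was 4.04-fold (log2 2.01 ± 0.32 SE) with an adjusted p of 0.0518 in edgeR, just outside the threshold, and 2.5e-05 in DESeq2. The GFP line stayed between 7.30 and 9.62 CPM under either treatment, which is the level of the SMARCB1 line without Dox. HCLS1, an actin-binding adaptor best known from blood cells, went from 1 and 6 counts with DMSO (0.167 and 0.468 CPM) to 106 and 92 counts with Dox (8.87 and 14.6 CPM). Its adjusted p was 0.0625 in edgeR and 1.59e-05 in DESeq2, and it stayed at or below 0.66 CPM in the GFP line.

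RGS2, a GTPase-activating protein that shuts off Gq signalling, was the leading gene in the other direction. It measured 10.96 and 8.56 CPM with Dox against 29.2 and 45.03 CPM with DMSO, 3.80-fold lower (log2 -1.92 ± 0.30 SE). The adjusted p was 0.0518 in edgeR and 2.5e-05 in DESeq2. GFP-line libraries ranged from 39.6 to 58.2 CPM, so that SMARCB1 Dox was below all 6 other libraries. RGS2 was also lower with Dox in the GFP line without overlap, by a smaller distance (41.0 and 39.6 against 58.2 and 42.9 CPM, log2 -0.33).

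The sequences just upstream of these 4 genes are shown because they are the leading genes by p-value besides SMARCB1 and because mSWI/SNF acts on promoters and enhancers. Each is the 250 bases before the transcription start that RefSeq (GRCh38.p14) lists nearest to the gene's 5′ end. Capitals mark exact matches, on either strand, to an AP-1 site (TGANTCA), an E box (CACGTG), a GC box (GGGCGG) or a TATA box (TATAAA), and no marked matches overlap. The windows are chr9:130444711-130444960 (plus strand), chr17:27456198-27456447 (plus), chr3:121660904-121661153 (minus) and chr1:192808789-192809038 (plus).
ASS1: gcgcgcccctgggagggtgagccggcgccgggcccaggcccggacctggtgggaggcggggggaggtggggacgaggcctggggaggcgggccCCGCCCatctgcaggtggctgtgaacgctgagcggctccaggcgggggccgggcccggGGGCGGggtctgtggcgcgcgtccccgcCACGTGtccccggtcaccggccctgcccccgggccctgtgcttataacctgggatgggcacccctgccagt
KSR1: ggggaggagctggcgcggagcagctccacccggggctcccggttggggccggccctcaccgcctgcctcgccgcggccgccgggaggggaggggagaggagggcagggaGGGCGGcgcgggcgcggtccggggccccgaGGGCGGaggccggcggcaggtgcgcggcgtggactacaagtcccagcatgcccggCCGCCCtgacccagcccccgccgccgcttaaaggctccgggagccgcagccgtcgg
HCLS1: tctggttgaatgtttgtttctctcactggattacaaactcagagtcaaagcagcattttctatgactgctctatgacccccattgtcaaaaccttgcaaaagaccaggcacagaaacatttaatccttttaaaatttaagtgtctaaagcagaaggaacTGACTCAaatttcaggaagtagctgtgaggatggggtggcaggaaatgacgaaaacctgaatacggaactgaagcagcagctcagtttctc
RGS2: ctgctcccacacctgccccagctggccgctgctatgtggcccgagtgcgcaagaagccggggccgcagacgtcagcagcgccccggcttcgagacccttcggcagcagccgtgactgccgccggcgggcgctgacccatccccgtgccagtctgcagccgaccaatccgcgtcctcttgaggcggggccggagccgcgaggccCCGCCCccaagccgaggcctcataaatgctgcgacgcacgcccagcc

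The window of ASS1 held 2 GC boxes and 1 E box, that of KSR1 held 3 GC boxes, that of RGS2 held 1 GC box, and that of HCLS1 held 1 AP-1 site, which begins 91 bases before the start. HCLS1 also differed in base composition, with 41.2% GC against 78.8%, 80.8% and 72.8% for ASS1, KSR1 and RGS2 and a median of 65.2% over 9103 tested genes with a window. An AP-1 site occurred in 3.32% of those 9103 windows. Among called genes with a window (24 of 33, chromosome 8 left out), it occurred in 3 of 20 higher genes (DENND2A, F3 and HCLS1) and in 2 of 4 lower genes (GJA1 and ZFYVE26). A GC box was found in 69.3% of all windows, in 10 of the 20 and in 1 of the 4. The E box occurred in 9.305% of all windows, in 3 of the 20 and in 1 of the 4, and the TATA box in 5.196%, in 1 of the 20 and in 0 of the 4. These are letter matches, not evidence of binding.

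Several called genes encode cell-surface receptors. AXL, a receptor tyrosine kinase for the ligand GAS6, measured 94.97 and 91.8 CPM with Dox against 40.2 and 37.9 CPM with DMSO (log2 1.26 ± 0.23 SE, adjusted p 0.0832 in edgeR and 7.37e-04 in DESeq2). The GFP line lay between 34.2 and 37.4 CPM. LGR4, the receptor for R-spondins that strengthens WNT signals, stood at 50.5 and 52.95 against 18.5 and 11.3 CPM (log2 1.81 ± 0.33 SE, adjusted p 0.0832 and 7.37e-04). TGFBR1, the type I receptor for TGF-beta, was at 20.8 and 21.1 against 7.84 and 6.70 CPM (log2 1.53 ± 0.32 SE). In each of the 3, the lower Dox library was more than 2-fold above the higher DMSO library.

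LIFR, which pairs with gp130 to receive leukemia inhibitory factor, had 40 and 20 counts with Dox (3.35 and 3.17 CPM) and none with DMSO, at least 20.6-fold higher against 3 counts over the DMSO group. That bound is 6.57-fold when only the shallower DMSO library is counted. IL6R, the receptor for interleukin-6, measured 6.02 and 7.29 against 1.84 and 1.79 CPM. VLDLR, which takes up lipoproteins and receives reelin, measured 21.5 and 28.85 against 8.34 and 4.36 CPM. Both were called by DESeq2 (adjusted p 0.0419 and 0.0277) and not by edgeR (0.287 and 0.336).

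Adhesion and surface proteins included MCAM, a cell adhesion molecule, at 4.43 and 3.49 against 1.00 and 0.467 CPM, and LAYN, a hyaluronan receptor, at 11.7 and 6.66 against 1.84 and 2.88 CPM. STOM, the membrane protein stomatin, had the highest level among the genes called higher, at 326 and 277 against 159 and 142 CPM (log2 1.00 ± 0.25 SE, edgeR adjusted p 0.336). SLC39A8, a zinc and manganese importer, had 36 and 11 counts with Dox and 1 in each DMSO library, a ratio of 24.2 with a 95% exact interval of 6.35 to 206 that covers counting error only. Products that act outside the cell were PDGFA, a growth factor (10.5 and 5.23 against 1.33 and 0.857 CPM), F3, tissue factor, which starts coagulation (9.20 and 6.66 against 2.002 and 1.48 CPM), and complement C3 (13.6 and 17.1 against 4.67 and 6.23 CPM).

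Inside the cell, the called genes were EXPH5, a RAB27 effector in vesicle transport (17.5 and 22.4 against 4.003 and 3.58 CPM, log2 2.39 ± 0.46 SE), and PLEKHA2, which binds phosphoinositides (12.6 and 19.0 against 4.34 and 5.30 CPM). They also included DENND2A, a RAB exchange factor (47.6 and 47.7 against 19.2 and 16.6 CPM), LRRC1, a scaffold of cell polarity (21.5 and 20.3 against 5.17 and 7.17 CPM), and TARS3, a threonyl-tRNA synthetase (43.7 and 32.97 against 17.7 and 14.9 CPM). KRT80, a keratin, was at 3.93 and 4.28 against 0.5004 and 0.701 CPM. CCNYL1, a cyclin Y relative, was at 15.8 and 12.8 against 5.67 and 3.58 CPM. FILIP1L measured 14.7 and 14.4 against 0.667 and 3.58 CPM and INSYN1 3.18 and 4.91 against 0.834 and 0.0779 CPM. edgeR gave these 9 genes adjusted p-values of 0.105 to 0.463. INSYN1 was also higher with Dox in the GFP line without overlap (5.625 and 4.44 against 2.14 and 2.29 CPM, log2 1.18). Of the 25 genes called higher, 4 (ASS1, AXL, MCAM and INSYN1) were higher with Dox in the GFP line without overlap. Another 3 (CCNYL1, FILIP1L and IL6R) were lower there, and 18 overlapped.

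ANGPT2, angiopoietin-2, an antagonist ligand of the endothelial receptor TIE2, was the secreted factor among the genes called lower. It measured 162 and 152 CPM with Dox against 449 and 345 CPM with DMSO (log2 -1.34 ± 0.24 SE, adjusted p 0.0832 in edgeR and 7.77e-05 in DESeq2). Its GFP-line range was 203 to 251 CPM, so DMSO-treated cells of the SMARCB1 line were above that range and Dox-treated cells below it. GJA1, the gap junction protein connexin 43, was at 744 and 705 against 1621 and 1842 CPM (log2 -1.26 ± 0.30 SE, edgeR adjusted p 0.323, DESeq2 0.0135).

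KBTBD7, a substrate adaptor of a CUL3 ubiquitin ligase, was at 9.62 and 10.6 against 32.4 and 22.9 CPM. BBS4, part of the BBSome that sorts cargo into cilia, was at 23.8 and 22.4 against 56.4 and 57.3 CPM, and ZFYVE26, needed for lysosome recycling, was at 102.5 and 129 against 225 and 245 CPM. ETV7, an ETS-family repressor, had 7 and 0 counts with Dox and 26 and 42 with DMSO. In the GFP line, 3 of the 8 genes called lower (RGS2, ANGPT2 and KBTBD7) were lower with Dox without overlap, 1 was higher and 4 overlapped. For 7 of the 8, at least 10 counts were present in every library, ETV7 being the exception. Of the 25 genes called higher, only 15 had at least 10 counts in every library of both lines.

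**Figure D2:**
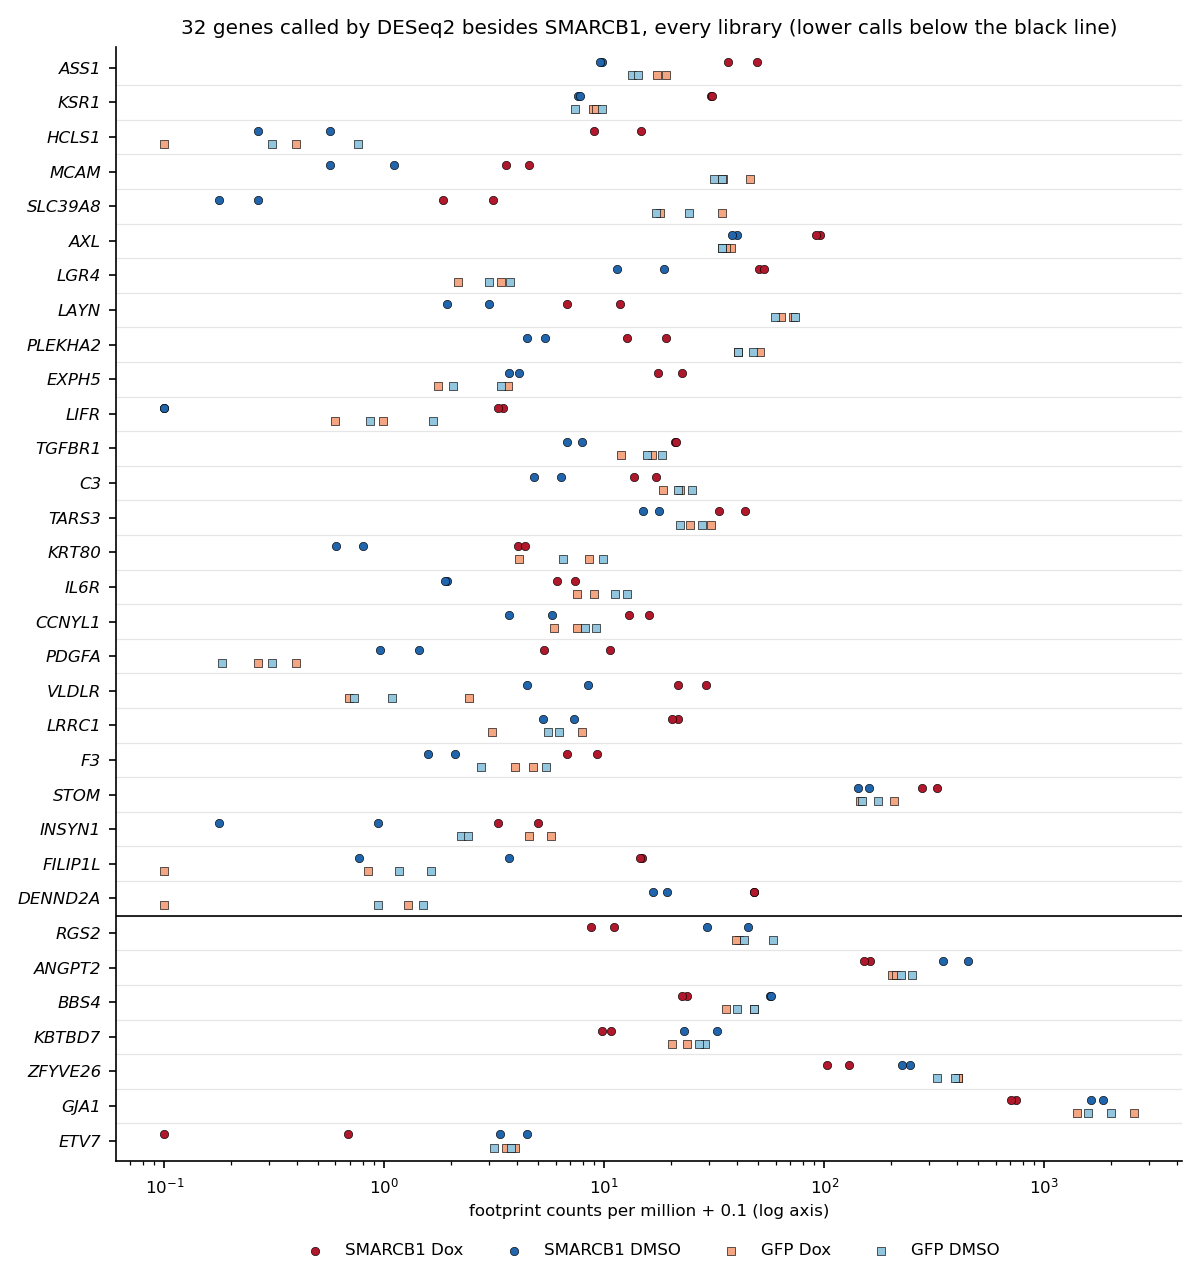
Level of 32 genes called by DESeq2 besides SMARCB1 in all 8 libraries, in CPM plus 0.1 on a log axis, with circles for the SMARCB1 line and squares for the GFP line. In every row the dark red points (SMARCB1 Dox) and dark blue points (SMARCB1 DMSO) do not overlap, with the nearest gap running from 1.74-fold to 19.0-fold.

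The lines differed in where these genes started. Of the 25 higher genes, 6 had all 4 GFP-line libraries above all 4 SMARCB1-line libraries, 6 had them below, and 13 overlapped. MCAM was at 31.5 to 46.0 CPM in the GFP line, LAYN at 59.5 to 73.5, PLEKHA2 at 40.4 to 51.0 and SLC39A8 at 17.2 to 34.2, each above the induced level in the SMARCB1 line. Because these genes are abundant in the GFP libraries, carry-over between libraries was checked with genes that the GFP line alone expresses. The 4 genes above 50 CPM in GFP DMSO and under 1 CPM in SMARCB1 DMSO (DKK1, FBN2, RFPL4B and S100A6) lay at 39.2 to 613 CPM in the GFP line. Their highest level was 0.476 CPM in SMARCB1 Dox and 1.00 CPM in SMARCB1 DMSO. The low DMSO level was set by the choice of genes, so only the SMARCB1 Dox level of these 4 genes serves as a check. LGR4, DENND2A and VLDLR had the opposite arrangement, with 2.07 to 3.61, 0 to 1.40 and 0.592 to 2.32 CPM in the GFP line, all below the DMSO level of the SMARCB1 line.

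**Figure D3:**
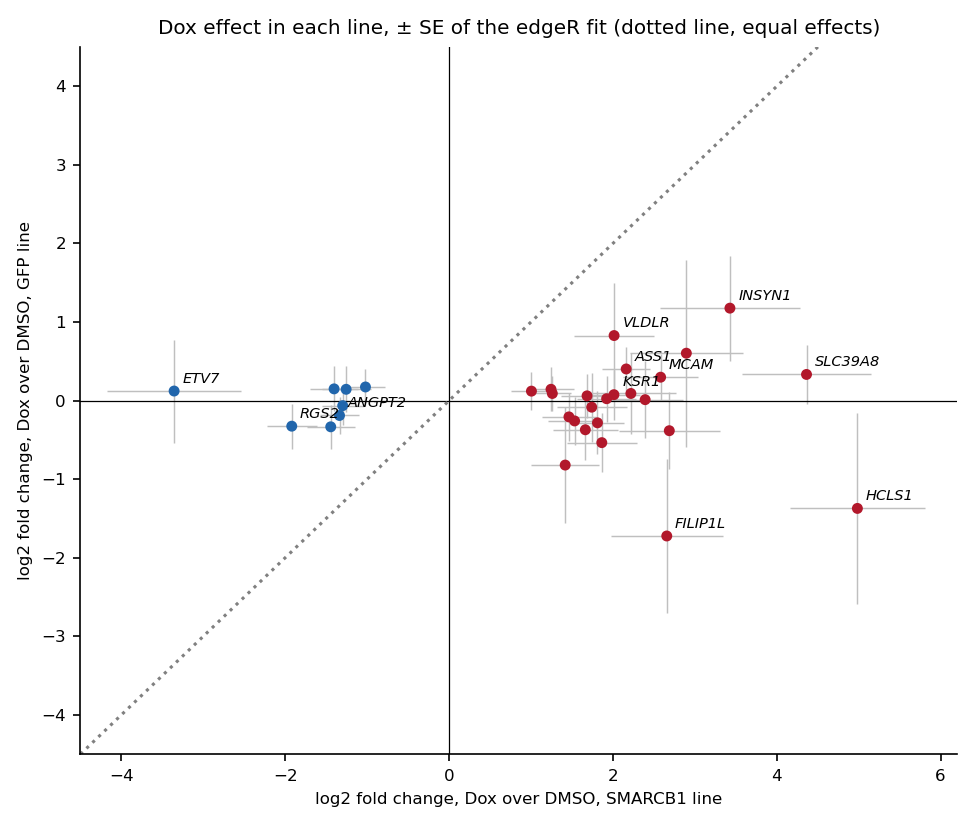
Dox over DMSO log2 fold change in the SMARCB1 line (horizontal) and the GFP line (vertical) for 32 called genes, with bars for ± SE of the edgeR fit; LIFR is left out because its DMSO libraries hold 0 counts. Most points lie near 0 on the vertical axis, the GFP-line values of the genes called higher running from -1.72 to 1.18.

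Further named genes passed neither tool. PDGFRA, the receptor for PDGFA, had 20 counts in each Dox library and 1 and 7 with DMSO (1.67 and 3.17 against 0.167 and 0.545 CPM, adjusted p 0.317 in edgeR and 0.0525 in DESeq2). CHST2, a sulfotransferase, was found 16 and 6 times against 0 and 2 (ratio 11.3, with a 95% exact counting interval of 2.79 to 99.5). Both genes were more abundant in the GFP line, PDGFRA at 37.7 to 56.4 CPM and CHST2 at 27.7 to 47.0 CPM. CHST2 was also higher with Dox there without overlap (log2 0.43). On the lower side GLI1, the transcription factor and target of Hedgehog signalling, was at 0.502 and 0.634 against 3.67 and 1.79 CPM. BMP6, a bone morphogenetic protein, was at 4.10 and 5.87 against 14.3 and 12.3 CPM. CHEK2, a DNA damage checkpoint kinase, was at 12.1 and 13.6 against 25.35 and 27.1 CPM, and the homeobox gene MEOX1 at 25.9 and 27.7 against 37.0 and 72.3 CPM. UTS2B, a urotensin-related peptide (1.51 and 1.43 against 4.34 and 3.82 CPM), WDR17 (9.62 and 11.1 against 30.7 and 18.1 CPM) and HMGN4, a nucleosome-binding protein (115 and 101 against 154.5 and 283 CPM), completed the 15 lower genes. edgeR gave the lower genes in this paragraph adjusted p-values of 0.364 to 0.455.

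Gene lists drawn up by function were then read by how many members had non-overlapping libraries, against 17.3% higher and 18.3% lower among all genes. CDK inhibitors and G1 cyclins, which set entry into S phase, had 8 of 16 tested members higher and none lower, with a median log2 change of 0.28 against -0.02 for all genes. CCNE2, a cyclin of the G1/S step, was at 17.1 and 18.1 against 7.84 and 9.27 CPM, CDKN2C, an inhibitor of CDK4 and CDK6, at 16.4 and 21.1 against 9.67 and 10.9 CPM, and CDK6 at 19.8 and 18.1 against 14.3 and 8.88 CPM. The higher side held drivers of the step together with genes that restrain it. The latter were the CDK inhibitor CDKN2C and the retinoblastoma-family genes RB1 and RBL2 (log2 0.32 and 0.21), while RBL1 overlapped (log2 -0.01). The other tested CDK inhibitors, CDKN1A and CDKN1B, overlapped (log2 0.29 and -0.27), as did the drivers CCND1, CDK2 and CDK4. None of the 16 was called, and in the GFP line 2 were higher and 3 lower. DNA replication and mitosis genes had 4 of 36 higher and 9 lower, with a median of -0.11 that became 0.01 when libraries were scaled by total counts.

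WNT signalling had 13 of 28 tested members higher and 3 lower (median 0.26), against 6 and 4 in the GFP line. LGR4 was the only one called, by DESeq2. FZD7, a WNT receptor, was at 5.19 and 9.83 against 1.84 and 2.57 CPM. WNT6, a ligand, was at the limit of detection with 12 counts over both Dox libraries and 0 with DMSO. RAF-ERK signalling had 5 of 18 higher and none lower (median 0.19), led by KSR1, with HRAS at 4.60 and 6.82 against 2.34 and 2.57 CPM. Genes that report ERK output were divided, with 6 of 24 higher and 5 lower (median 0.29), against 2 and 4 in the GFP line. The higher members were JUN, FOSB, JUNB, FOSL1, SPRED2 and JUND (log2 0.39 to 1.17). The lower members ran from log2 -0.76 (IER2) to -0.17 (ATF3), and none of the list was called. Among the lower, MYC stood at 82.7 and 84.3 against 113 and 114 CPM. DUSP6, a phosphatase that ERK induces and that turns ERK off, was at 29.8 and 22.2 against 31.4 and 43.2 CPM. DUSP6 was also lower with Dox in the GFP line without overlap (log2 -0.37 beside -0.52). RGS proteins had 2 of 10 higher and 4 lower, with RGS1 (1.34 and 2.06 against 5.34 and 6.31 CPM) beside RGS2 and RGS10 opposite to them (197 and 173 against 104 and 95.8 CPM). After GFP induction 4 RGS genes were also lower and none higher.

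Amino acid genes leaned upward. Arginine and linked metabolism had 10 of 29 tested members higher and 1 lower (median 0.17), beside 8 and 2 in the GFP line (median 0.10). Apart from ASS1, the polyamine enzymes ODC1 (565.5 and 601 against 468.5 and 257 CPM) and AMD1 (32.2 and 72.8 against 24.0 and 22.0 CPM) had the smallest p-values. AMD1's Dox libraries differed from each other by more than the lower of them differed from DMSO. ATF4 and its targets in the integrated stress response had 9 of 24 higher and 3 lower (median 0.15), against 3 and 2 in the GFP line. ATF4 was at 314 and 376 against 269 and 161 CPM, while NUPR1, a stress-induced chromatin protein, went the other way (240 and 212 against 266 and 512 CPM).

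Sterol and fatty acid synthesis had 11 of 33 tested members lower and 3 higher, with a median of -0.10 that became 0.00 under scaling by total counts. SQLE, squalene epoxidase, was at 119 in both Dox libraries against 203 and 137 CPM, and DHCR7, which makes cholesterol in the last step, at 12.5 and 10.8 against 16.5 and 17.2 CPM. After GFP induction 5 members were higher and 4 lower, DHCR7 among the lower (log2 -0.42, beside -0.53 after SMARCB1 induction). Heat shock and ER chaperones had 12 of 28 lower and 4 higher (median -0.22), or 8 lower and 6 higher (median -0.11) under scaling by total counts, with a sum of 31787 and 30716 against 35023 and 41701 CPM, and 2 in each direction in the GFP line. XBP1, the transcription factor of the unfolded protein response, and BAG3, a co-chaperone, were on the higher side (124.5 and 159 against 105 and 71.3 CPM, and 25.2 and 34.6 against 17.5 and 19.8 CPM).

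Ribosomal protein genes had 19 of 76 higher and none lower (median 0.18), beside 6 and 7 in the GFP line (median -0.14). RPS3A was at 72.9 and 160 against 66.7 and 49.2 CPM and RPL34 at 89.4 and 197 against 76.6 and 84.4 CPM. The summed level overlapped, at 28438 and 33662 CPM with Dox and 25835 and 33328 CPM with DMSO. The multi-mapped share was 26.6% and 39.7% in the Dox libraries and 28.7% and 29.4% in the DMSO libraries. Ribosomal protein genes have many processed copies whose reads cannot be assigned to one place, so their counts are uncertain, and the part of multi-mapping in these values was not tested. Translation factors were balanced, with 7 of 49 in each direction, and of 13 mitochondrially encoded genes only MT-ND6 did not overlap (lower).

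Chromatin and patterning genes mostly followed all genes or leaned down. mSWI/SNF subunits had 3 of 25 higher, SMARCB1 among them, and 6 lower. ARID1A, the largest BAF subunit, was at 328 and 322.5 against 489 and 429 CPM, and PHF10, a subunit of PBAF, at 163 and 145 against 249 and 208 CPM. Polycomb subunits, whose action mSWI/SNF opposes, had 7 of 29 higher and 8 lower, against 3 and 6 in the GFP line. HOX genes had 9 of 26 lower and 4 higher (median -0.31, and -0.20 under scaling by total counts). After GFP induction 2 HOX genes were higher and 3 lower, HOXB8 among the lower (log2 -0.64, beside -0.83 after SMARCB1 induction). HOXC8 was at 35.0 and 24.6 against 46.4 and 67.0 CPM, HOXB8 at 14.0 and 14.9 against 25.5 and 25.7 CPM, and HOXB6 at 19.1 and 23.5 against 28.5 and 41.1 CPM. Collagens, laminins and matrix glycoproteins had 6 of 32 higher and 11 lower (6 and 7 under scaling by total counts). FBN1, fibrillin-1, was at 110 and 107 against 64.7 and 46.4 CPM, LAMB1 at 389 and 429 against 227 and 206 CPM, and LAMA4 at 4.52 and 5.71 against 9.67 and 9.51 CPM.

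**Figure D4:**
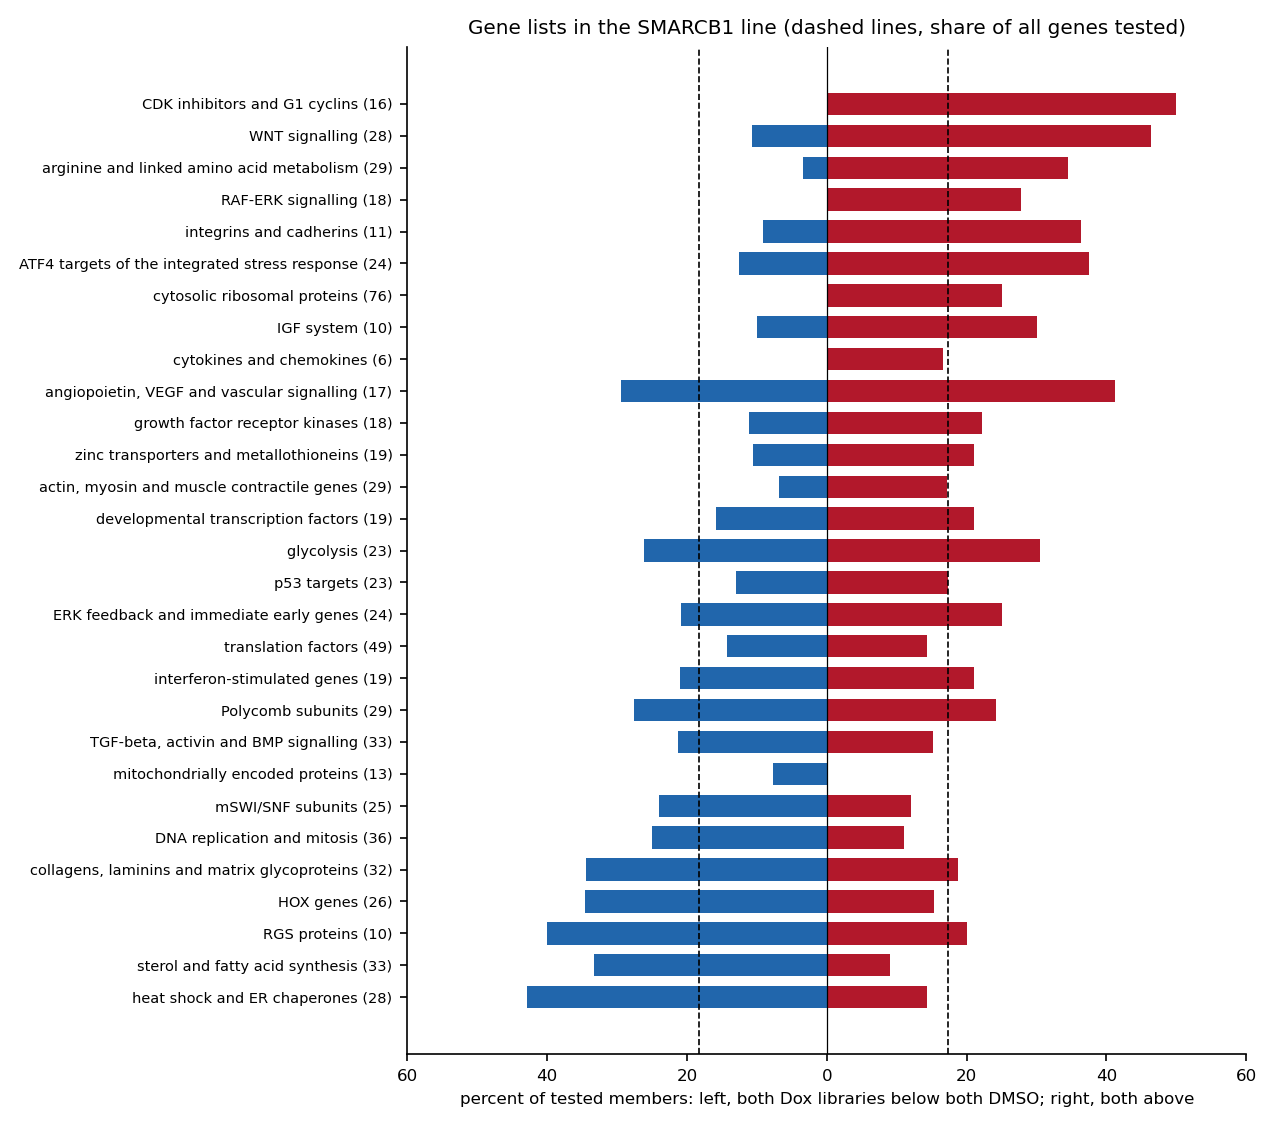
Share of tested members of each list (number in parentheses) whose Dox libraries both lay above (right, red) or both below (left, blue) the DMSO libraries in the SMARCB1 line, in percent. Dashed lines mark 17.3% and 18.3%, the shares among all genes tested.

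The remaining lists are given by their counts. Angiopoietin, VEGF and vascular genes had 7 of 17 higher and 5 lower, growth factor receptor kinases 4 of 18 and 2 (FGFR3 at 11.9 and 14.9 against 4.84 and 5.53 CPM, and EGFR at 212 and 226 against 290 and 289 CPM), and TGF-beta, activin and BMP signalling 5 of 33 and 7 (8 and 3 under scaling by total counts). FSTL1, a secreted glycoprotein of the follistatin family, was at 49.8 and 56.1 against 22.4 and 26.3 CPM. The IGF system had 3 of 10 higher and 1 lower, IGFBP3 at 147 and 131 against 210 CPM in both DMSO libraries, and in the GFP line IGFBP3 was lower too (log2 -0.54 beside -0.60). Integrins and cadherins had 4 of 11 higher and 1 lower, with ITGA3 at 21.6 and 25.8 against 13.5 and 15.3 CPM. Muscle contractile genes had 5 of 29 higher and 2 lower (TNNI1, a slow skeletal troponin, at 5.44 and 6.82 against 1.33 and 3.58 CPM), and developmental transcription factors 4 of 19 and 3 (TBX2 at 4.52 and 5.39 against 0.834 and 1.79 CPM). Glycolysis had 7 of 23 higher and 6 lower, with the enzyme HK1 at 232 and 228 against 146 and 159 CPM and the glucose transporter SLC2A1 at 131 and 118 against 166 and 205 CPM. The p53 targets had 4 of 23 higher and 3 lower, interferon-stimulated genes 4 of 19 in each direction, zinc genes 4 of 19 and 2, and cytokines 1 of 6 and 0. Apart from SMARCB1, list members called by either tool included ASS1, KSR1, RGS2, ANGPT2, PDGFA, AXL, LGR4, TGFBR1, VLDLR and SLC39A8.

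Footprint level, GC content and coding length were read over all tested genes divided into quintiles. The level is a mean over the 4 groups, so it includes the libraries that the rule compares. GC content and length do not use them. By mean footprint level, genes higher with Dox fell from 24.5% in the lowest quintile to 8.02% in the highest, and genes lower with Dox went from 13.6% to 26.5%. With scaling by total counts the shares were 27.75% to 16.7% higher and 11.1% to 14.4% lower. The GFP line had 13.2% to 11.4% and 15.5% to 11.2%. By GC content of the coding sequence, higher genes went from 11.1% in the lowest quintile to 20.6% in the highest and lower genes from 21.3% to 16.4%. The GFP line had the same ordering, over a wider range, at 4.41% to 20.2% and 20.4% to 6.49%. By coding length, lower genes were most frequent in the longest quintile of the SMARCB1 line (24.0% against 14.2% in the shortest). Higher genes of that line were at 14.9% in the longest and 15.1% in the shortest. In the GFP line the order of lower genes was opposite (10.8% in the longest, 16.7% in the shortest). The 33 called genes had median coding lengths of 1521 (higher) and 1522 bases (lower) against 1464 for all tested genes and GC contents of 50.4% and 47.7% against 52.1%. Level and composition moved with the direction of change, and their part in the lists above was not tested.

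**Figure D5:**
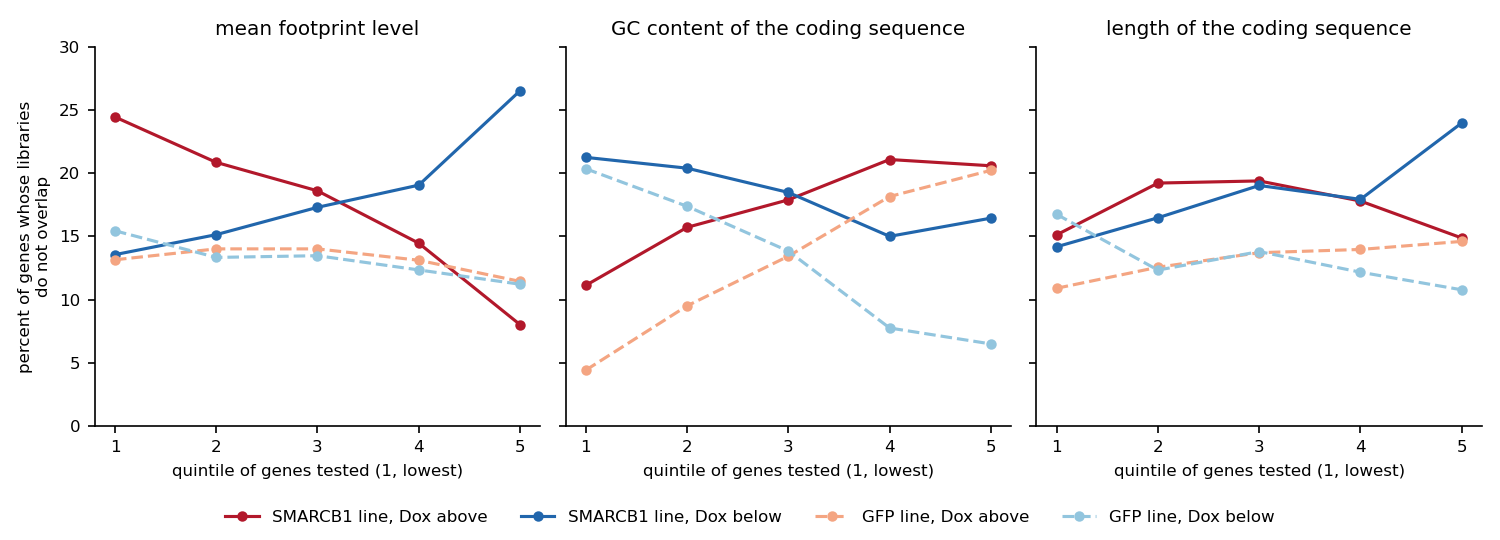
Percent of genes whose Dox libraries both lay above or both below the DMSO libraries, by quintile of mean footprint level, coding GC content and coding length, for the SMARCB1 line (solid) and the GFP line (dashed). The level gradient is seen in the SMARCB1 line and the GC gradient in both lines. Mean level includes the libraries that are compared.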

How the data were processed

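Ribosome footprints were measured with RiboLace in G401 cells of a SMARCB1 and a GFP Tet-On line given doxycycline or DMSO for 12 h, with 2 libraries per group. The authors aligned reads to hg38 with STAR and counted them over coding exons with HTSeq (strict intersection, GENCODE 42, per the methods and the submitters' processing notes), and deposited raw counts for 20719 gene IDs with 5 rows of reads without a gene. Those rows entered neither library sizes nor tests. Reads on coding exons were 52.8% to 61.75% of uniquely mapped reads, and reads mapped to several places were not counted. Symbols and positions were taken from GENCODE 44 on hg38 (311 IDs had no symbol). Depth was 5924443 to 14000039 counts per library, and intervals cover counting error only.

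Genes passing filterByExpr (11097) were fitted in all 8 libraries with edgeR 4.0.16 (R 4.3.3, TMM, quasi-likelihood F test, contrasts within each line and between lines, Benjamini-Hochberg adjustment over all tested genes). A call needed an adjusted p under 0.05 and a change above 2-fold. DESeq2 1.42.0 (Wald test), the study's tool, was the alternative for calls. Fits were tested on simulated data. Fold changes compare fitted means. CPM use TMM-scaled library sizes.

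The members and gene lists were chosen with earlier results of these data known. Named genes are SMARCB1, the 15 higher and 15 lower non-overlapping genes of more than 2-fold change with the smallest edgeR p, up to 3 non-overlapping members per list, and every gene called by either tool. Experiments were run in duplicate with plates pooled for each condition, and the sources used here do not say whether the duplicates were separate cultures, so p-values measure only the spread between these libraries, which may be technical. Alternatives were other scalings, filters and margins, DESeq2, a replicate block, only the line's own libraries, and leaving out each library. Those that left out GFP Dox replicate 2 or a GFP DMSO library for the SMARCB1 line, or any library for the difference between lines, and the 2-fold gap combined with the 10-count filter, were chosen after seeing the data. Promoter windows and their motif matches came from RefSeq sequences (GRCh38.p14). Values of 2 named genes are not reported here.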

Additional observations from a re-analysis of the deposited data

Results flagged for a closer look

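SMARCB1 was the 1 gene for which the Dox effects of the lines differed by a test of the difference itself. DESeq2 gave a log2 difference of 12.47 ± 2.53 (SE) with an adjusted p of 0.00958. The size depends on how the fit treats libraries at 0, since all 6 other libraries hold 0 counts, and it is no bound. edgeR could not measure this difference, because both GFP groups are at 0 (adjusted p = 1). Groups of 2 libraries were not searched for outlying samples.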

How the results depend on the processing

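Limits: 2 libraries per group, no matched mRNA measurement in use, and a spread that is shared across lines. Calls in the SMARCB1 line numbered 2 with the main settings and with both other scalings. They numbered 46 (38 higher, 8 lower) without the filter on low counts, 1 with at least 10 counts in every library, 5 with the SMARCB1 line alone, 34 with DESeq2 and 13 (9 higher, 4 lower) with a replicate block. Leaving out 1 library gave 1 to 22 calls (22 without either GFP Dox library, 1 without SMARCB1 Dox replicate 1 or without either SMARCB1 DMSO library). All 13 calls under the block were among the 34 of DESeq2, as were 31 of the 46 made without the filter. In the GFP line the count of 0 became 14 without the filter and 0 to 147 when 1 library was left out (147 without GFP Dox replicate 2). For the difference between lines it became 15 without the filter, 1 with DESeq2, and 0 to 105 when 1 library was left out (105 without GFP Dox replicate 2). The cause of these shifts was not tested.

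Non-overlapping genes numbered 1918 higher and 2033 lower. A gap of at least 1.5-fold left 332 and 129, a gap of at least 2-fold 148 and 29, and that gap with at least 10 counts in every library 29 and 9, since each is a stricter rule. Scaling by total counts gave 1237 lower genes. Of 1650 values for 112 named genes under the alternatives, 0 changed sign, 1528 kept their side of the threshold, 118 became calls and 4 (ASS1, without each library of its line) lost the call. Of 435 list medians, 27 moved by more than the spread between replicates and 45 had the other sign, 8 of them under scaling by total counts. Samples with the same replicate number were not treated as pairs, because their deviations from the group means correlated at 0.0454 to 0.280 over 6 pairs of groups and 1 pair was not above 0.1. That every pair was positive is a hint from the data and not from the design.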

Other observations

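Among the 38 genes with a 2-fold gap and at least 10 counts in every library, 16 fell outside the rule for named genes, and 9 of them are given here, chosen after their values were seen. MAPK12, the p38 gamma kinase, was at 20.7 and 19.2 CPM in SMARCB1 Dox against 8.17 and 7.64 CPM in SMARCB1 DMSO (log2 1.34 ± 0.35 SE). RAP2A, a small GTPase, was at 37.2 and 47.1 against 18.01 and 17.45 CPM (log2 1.25 ± 0.31 SE). STK17A, a kinase linked to apoptosis, was at 13.2 and 15.5 against 5.17 and 6.39 CPM, and IRAK2, a kinase of interleukin-1 receptor signalling, at 12.3 and 15.7 against 4.503 and 5.92 CPM. PDP1, the phosphatase that activates pyruvate dehydrogenase, was at 19.8 and 19.3 against 8.67 and 6.86 CPM. SMOX, which oxidises spermine, was at 4.85 and 5.39 against 2.17 and 1.56 CPM. CHST11, a chondroitin sulfotransferase, was at 10.2 and 11.9 against 3.84 and 3.97 CPM. CTIF, a translation factor of the nuclear cap-binding complex, was at 15.1 and 14.6 against 6.84 and 6.62 CPM. PTPRH, a receptor phosphatase, was the 1 lower gene of the 16, at 1.67 and 2.54 against 5.17 and 5.30 CPM. None of the 16 was called by edgeR with the main settings or by DESeq2, and RAP2A was called by edgeR without the filter on low counts.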
